A study of Mus musculus with 2 samples.

Results

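Foxp3, Ikzf2 (Helios), Ikzf4 (Eos), Nrp1 (neuropilin-1) and Il1rl1 (ST2, the receptor for IL-33) are 5 genes by which regulatory T cells (Treg) and their subsets are commonly recognised. They were taken by name from the 32285 genes of 1 single-cell count matrix and followed through the T cells of the spleen. A barcode was kept when it had 200 genes or more and when mitochondrial transcripts made up 10% or less of its UMIs (unique molecular identifiers, each standing for 1 captured transcript). A T cell had 2 or more UMIs of Cd3d, Cd3e, Cd3g and Trac together and none of Cd79a, Ms4a1 and Ncr1. Of 16325 kept cells, 2030 were T cells. They held 260 Cd4 T cells (a Cd4 UMI and none of Cd8a or Cd8b1), 562 CD8 T cells (the reverse), 23 cells with both and 1185 with neither, and each class was split by whether an Il10 UMI was present. NK cells (4899, at least 2 UMIs of Ncr1 and Klre1) and B cells (2563, at least 2 UMIs of Cd79a and Ms4a1) served as the background.

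Foxp3 is the lineage-defining transcription factor of Treg, and loss of its function causes fatal autoimmunity. Helios and Eos are zinc finger factors of the Ikaros family that bind with or alongside Foxp3, and both also occur outside Treg. Neuropilin-1 is a semaphorin and VEGF co-receptor that is used as a mark of thymus-derived Treg in mice, while ST2 is found on tissue-type Treg, Th2 cells, basophils and mast cells.

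The cells came from WT C57BL/6 mice, 8 weeks old, that were all sensitized to ovalbumin (OVA) on days 0 and 10. They were then left untreated, received the Standard therapy (OVA in PBS on days 20, 22 and 24, then OVA in Alum on days 40 and 60), or received DCIR2-Fp, an antibody-OVA fusion protein directed to cDC2, on days 20, 22 and 24. Spleens were taken on day 80 after an OVA challenge, the cells were stimulated for 3 h with PMA/ionomycin, and sorted CD45+ CD11b- and CD45+ CD11b+ fractions were mixed 1:1, so cell shares reflect the sort. All conditions were run as 1 pool tagged with 4 hashtag antibodies, and the sources used here do not say which hashtag marks which of the 3 conditions. The therapies were therefore not compared, the pool counts as 1 sample, and no statistical test was possible. Levels are UMIs of a gene per 1000000 UMIs of a class (CPM), given with exact Poisson 95% intervals. Shares of cells have exact Clopper-Pearson intervals and ratios of CPM exact conditional binomial intervals, and all of these cover counting error only. A gene was called when its CPM differed at least 2-fold and it had at least 50 UMIs in both classes together.

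The 16829 barcodes were all distinct and held a median of 6334 UMIs each. The 5 T cell markers (Cd3d, Cd3e, Cd3g, Trac and Cd2) summed to 1218 CPM in T cells, 158 in NK cells and 133 in B cells, and B, NK and myeloid marker lists summed to 51.2, 92.5 and 198 CPM in T cells. The gates partly set these sums and so do not test the classes. Cd3d, Cd3e, Cd3g and Trac define the T cells, which lack Cd79a, Ms4a1 and Ncr1 by definition. Cd2, which no gate used, was at 334 CPM in T cells, 64.3 in NK cells and 68.1 in B cells. Scrublet, a doublet caller, marked 7.14% of T cells, 20.6% of the 995 NK cells that held a Cd3 or Trac UMI and 43.2% of the 294 such B cells. Background levels are therefore given with and without those cells.

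On the GRCm38 build with GENCODE M21, Foxp3 (ENSMUSG00000039521) lies at chrX:7573644-7595245 on the plus strand, where it overlaps Flicr, a non-coding gene of the same strand. Ikzf2 (ENSMUSG00000025997) spans chr1:69531214-69687245 on the minus strand and encloses 2 intronic non-coding genes of that strand. Ikzf4 (ENSMUSG00000002578) spans chr10:128630843-128645991 on the minus strand, Nrp1 (ENSMUSG00000025810) chr8:128358604-128503363 on the plus strand, and Il1rl1 (ENSMUSG00000026069) chr1:40429570-40465415 on the plus strand. Counts from the 3′ end do not tell which start or isoform was used.

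The sequences before the RefSeq starts (GRCm38.p6) of the 3 members with an entry are shown because Foxp3 and Il1rl1 were detected together in T cells and Nrp1 followed another pattern. Each runs 5′ to 3′ on the plus strand for up to 250 bases and stops before any annotated untranslated exon. Capitals mark matches, on either strand, to GGAAA, the NFAT core, to AGATAA, read by factors of the GATA family, and to TGTTTAC, read by forkhead factors. No match was found in these windows to the AP-1 motif TGANTCA, which was searched too.
Foxp3, chrX:7579426-7579566: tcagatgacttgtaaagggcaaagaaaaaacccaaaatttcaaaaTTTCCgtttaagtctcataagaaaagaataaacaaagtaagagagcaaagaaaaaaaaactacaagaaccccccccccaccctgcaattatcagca
Foxp3, chrX:7580233-7580482: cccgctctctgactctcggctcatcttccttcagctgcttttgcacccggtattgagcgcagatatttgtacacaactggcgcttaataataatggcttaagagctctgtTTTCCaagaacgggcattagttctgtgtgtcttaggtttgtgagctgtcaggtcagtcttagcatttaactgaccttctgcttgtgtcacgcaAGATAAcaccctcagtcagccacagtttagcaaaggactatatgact
Il1rl1, chr1:40429320-40429569: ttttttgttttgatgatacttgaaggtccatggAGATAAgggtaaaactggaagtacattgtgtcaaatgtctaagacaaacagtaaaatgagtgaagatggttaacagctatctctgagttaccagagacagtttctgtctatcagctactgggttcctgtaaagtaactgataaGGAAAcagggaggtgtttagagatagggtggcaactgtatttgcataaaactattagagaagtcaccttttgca
Il1rl1, chr1:40439379-40439626: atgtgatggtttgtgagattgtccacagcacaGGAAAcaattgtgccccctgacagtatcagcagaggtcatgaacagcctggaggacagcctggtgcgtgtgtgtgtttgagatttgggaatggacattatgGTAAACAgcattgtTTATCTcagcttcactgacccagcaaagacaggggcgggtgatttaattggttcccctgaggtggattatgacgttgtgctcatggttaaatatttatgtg
Nrp1, chr8:128358823-128359072: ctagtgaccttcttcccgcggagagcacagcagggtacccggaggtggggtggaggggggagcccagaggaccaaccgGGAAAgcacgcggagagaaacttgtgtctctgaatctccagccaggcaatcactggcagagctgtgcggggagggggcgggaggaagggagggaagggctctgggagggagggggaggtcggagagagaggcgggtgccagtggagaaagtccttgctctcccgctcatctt
All but the first Il1rl1 window lie inside the annotated span of their gene, downstream of its first annotated base. GGAAA was present in all 5 windows, and in 55.6% of the 32851 windows of 250 bases before RefSeq starts. AGATAA was present in the second Foxp3 window and in both Il1rl1 windows, against 9.99% of all windows, and TGTTTAC in the second Il1rl1 window alone, against 3.17%. GC content was 64.4% in the Nrp1 window and between 37.6% and 46.4% in the others. These are matches of letters, and no binding was measured. Ikzf2 and Ikzf4 are named only.

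The members were low-count transcripts apart from Ikzf2. Among the 2030 T cells, Foxp3 had 786 UMIs in 207 cells, Ikzf2 6144 in 628, Ikzf4 316 in 186, Nrp1 2168 in 348 and Il1rl1 395 in 117. T cells held 62.9% of all Foxp3 UMIs of the 16325 cells, and between 44.1% and 45.4% of those of each other member. The share held by T cells was thus highest for Foxp3.

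**Figure D1:**
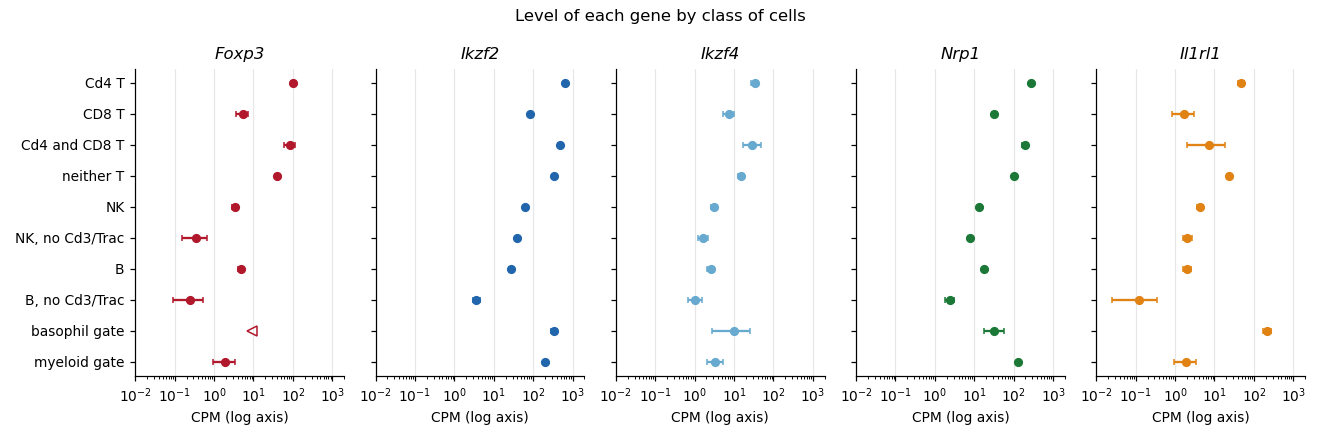
Level of each member (CPM, log axis) in T cell classes, NK cells, B cells with all cells or only those without a Cd3 or Trac UMI, and basophil and myeloid gates. Points are summed UMIs per 1000000 and bars exact Poisson 95% intervals, and the open triangle is the upper limit where no UMI was seen. Cd4 T cells lie above CD8 T cells in every panel, Il1rl1 is highest in the basophil gate at 215 CPM, and Nrp1 in the myeloid gate reaches 128 CPM.

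Cd4 T cells had higher levels of all 5 members than CD8 T cells. Foxp3 was at 103 CPM (91.2 to 115) in Cd4 and 5.29 CPM (3.66 to 7.39) in CD8 T cells, a ratio of 19.4 (13.6 to 28.6), and was seen in 65 of 260 against 10 of 562 cells. Ikzf2 was at 646 against 84.2 CPM (ratio 7.67, 6.97 to 8.46). Ikzf4 was at 33.4 against 7.31 CPM (4.57, 3.19 to 6.62). All 3 transcription factors thus had intervals far above 1. Nrp1 was at 272 against 32.7 CPM (8.32, 7.13 to 9.73), and Il1rl1 at 47.8 against 1.71 CPM (27.9, 15.1 to 57.3), the latter from 136 and 11 UMIs. The Il1rl1 ratio was 4.32 at 1000 UMIs per cell (6 and 3 UMIs) and 21.4 to 36.9 under the other alternatives. That of Foxp3 ranged from 13.0 at 1000 UMIs per cell to 56.6 with at least 2 UMIs for a positive class. The call of at least 2-fold higher was met by 5 of 5 members and by 9.48% of the 8639 genes with enough UMIs, and the members' median ratio was 8.32 against 1.13 over those genes. Of the other Treg genes listed (such as Il2ra, Ctla4 and Tnfrsf18), 15 of the 19 with enough UMIs were also called higher and 0 lower, where 2.11% of genes were lower.

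The 1185 T cells with neither transcript lay in between for every member. Foxp3 stood at 39.1 CPM in 125 cells, Ikzf2 at 330.2, Ikzf4 at 14.9, Nrp1 at 102 and Il1rl1 at 23.0 CPM, and each interval of the ratio to Cd4 and to CD8 T cells left out 1. A transcript can be missed at these depths, so the class can hold Cd4 and CD8 cells along with cells of neither kind. Its basophil markers summed to 91.9 CPM against 1.41 in Cd4 T cells, and their part in its Il1rl1 level was not tested. The 23 cells with both transcripts had Foxp3 at 82.9 CPM and Ikzf2 at 481 CPM, close to Cd4 T cells in Foxp3 (103 CPM, with overlapping intervals). They held a median of 17315 UMIs, against 8663 in Cd4 and 10345 in CD8 T cells, and Scrublet marked 1 of them. Whether they are doublets of a Cd4 and a CD8 T cell was not tested.

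Against the background, all 5 members were called higher in T cells than in NK cells (7.76% of 12628 genes were) and than in B cells (13.1% of 12194 genes). Foxp3 was at 38.5 CPM in T cells, 3.39 in NK cells and 4.70 in B cells. Most of that background sat in cells that also carried T cell receptor transcripts: 26 of 35 Foxp3+ NK cells and 30 of 36 Foxp3+ B cells had a Cd3 or Trac UMI. Without such cells Foxp3 stood at 9 UMIs in 3904 NK cells (0.343 CPM, 0.157 to 0.651) and 6 UMIs in 2269 B cells (0.243 CPM, 0.0893 to 0.530), with no cell above 1 UMI. CD8 T cells had Foxp3 in 1.78% of cells at a median depth of 10345 UMIs, while NK cells without those transcripts had it in 0.231% at 5511.5 UMIs. Against all NK cells the difference was smaller, with 5.29 CPM in CD8 T cells (ratio 1.56, 1.04 to 2.29). NK cells with a Cd3 or Trac UMI were at 10.7 CPM.

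The other members were not equally absent from the background. In NK cells without a Cd3 or Trac UMI, Ikzf2 was at 39.2 CPM (36.9 to 41.7) in 300 of 3904 cells, and in B cells without one at 3.61 CPM (2.90 to 4.44) in 39 of 2269. Nrp1 was at 7.89 CPM in those NK cells and 2.43 in those B cells. Il1rl1 was at 2.06 CPM in those NK cells and had 3 UMIs in those B cells. All NK cells had Il1rl1 at 4.31 CPM, above the 1.71 CPM of CD8 T cells (ratio of CD8 to NK 0.397, 0.194 to 0.730). T cells with no Foxp3 UMI had it at 4.76 CPM, 1.10-fold (0.838 to 1.45) the level of all NK cells. The same T cells had 2.31-fold the Ikzf2, 2.21-fold the Ikzf4 and 7.85-fold the Nrp1 level of all NK cells. CD8 T cells with no Il10 UMI had Ikzf2 at 54.2 CPM (48.4 to 60.6). That was below the 62.7 CPM of all NK cells (ratio 0.865, 0.766 to 0.975). It was above the 39.2 CPM of NK cells without a Cd3 or Trac UMI, while NK cells with such a UMI were at 119 CPM. Among 112 T cells with Trdc transcripts, which mark gamma-delta T cells, Ikzf2 was at 178 CPM (156 to 203), 2.12-fold (1.80 to 2.48) the level of CD8 T cells. The richest of these cells held 53 of the 225 UMIs.

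The myeloid and basophil gates carried particular members. In 417 myeloid cells, chosen by Lyz2, Csf1r and Cd68, Nrp1 was at 128 CPM (119 to 137) in 171 cells, a level 1.20-fold (1.11 to 1.31) that of T cells, and Ikzf2 was at 201 CPM in 167 cells. Il1rl1 in this gate came from 1 cell with 11 UMIs. In 32 basophils, chosen by Mcpt8, Prss34 and Cpa3, Il1rl1 was at 215 CPM (172 to 266) in 24 cells, 11.1-fold (8.72 to 14.1) the level of T cells and 1.92-fold (1.49 to 2.44) that of Foxp3+ T cells. No Foxp3 UMI was found in the basophils, where 3 UMIs would be 7.52 CPM. Ikzf2 in basophils stood at 333 CPM, of which 1 cell gave 49 of 133 UMIs, and without it the level was 246 CPM.

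The members were next compared between Cd4 T cells with and without Il10. Foxp3 was at 102 CPM (79.2 to 130.3) in the 57 Il10+ and 103 CPM (89.7 to 117) in the 203 Il10- cells, a ratio of 0.997 (0.746 to 1.32), and was seen in 13 of 57 and 52 of 203 cells. Ikzf2 was at 726 against 623 CPM (1.17, 1.05 to 1.30) and Nrp1 at 326 against 256 CPM (1.27, 1.08 to 1.495), a ratio that was 1.05 without hashtag 12. Ikzf4 was at 46.6 against 29.5 CPM (1.58, 0.987 to 2.46) and Il1rl1 at 46.6 against 48.2 CPM (0.966, 0.622 to 1.46). None of the 5 was called, beside 4.72% of 6290 genes called in either direction, and the 3 intervals that hold 1 do not show equal levels. At 1000 UMIs per cell, however, Ikzf2 was 2.11-fold higher in the Il10+ cells (1000 against 473 CPM, intervals 757 to 1296 and 383 to 578), and Foxp3 was at 35.1 against 78.8 CPM (0.445), from 2 and 16 UMIs. Over all alternatives the Ikzf2 ratio ranged from 1.05 to 2.11 and the Foxp3 ratio from 0.445 to 1.24.

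Most Il10+ Cd4 T cells, 44 of 57, had no Foxp3 UMI. These 44 had a median of 7201.5 UMIs against 18064 in the 13 with Foxp3, and a Foxp3 transcript can be missed at such depths. Within the Foxp3- Cd4 T cells Ikzf2 and Nrp1 differed by Il10 when all UMIs were summed, each by less than the 2-fold limit. There Ikzf2 was at 438 CPM (377 to 507) in Il10+ and 223 CPM (199 to 249.7) in the 151 Il10- cells, a ratio of 1.96 (1.62 to 2.37), and was seen in 25 of 44 against 41 of 151 cells. Nrp1 was at 469 against 310.0 CPM (1.51, 1.27 to 1.80), but 1 Il10+ cell held 44 of the 194 UMIs, and the level without it was 372 CPM. Il1rl1 had 2 UMIs in the 44 cells against 25 UMIs in the 151, 14 of these in 1 cell. Within Foxp3+ Cd4 T cells the order for the Nrp1 level was turned, from 16 and 138 UMIs. It was at 69.2 CPM (39.6 to 112) in 13 Il10+ and 166 CPM (139.7 to 196) in 52 Il10- cells, a ratio of 0.416 (0.231 to 0.700). The shares of cells with Nrp1 had overlapping intervals, with 6 of 13 (46.2%, 19.2 to 74.9) and 27 of 52 (51.9%, 37.6 to 66.0). Ikzf2 was at 1241 and 1282 CPM (0.968, 0.847 to 1.10). The Foxp3+ Il10+ cells had a median of 18064 UMIs and the Foxp3+ Il10- cells 13930.5.

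In T cells with neither Cd4 nor CD8 transcripts, 2 of 5 members were called higher in Il10+ cells, beside 4.21% of 9194 genes. Foxp3 was at 68.9 CPM (54.7 to 85.6) in 123 Il10+ and 35.4 CPM (31.7 to 39.4) in 1062 Il10- cells, a ratio of 1.95 (1.51 to 2.49). Ikzf2 was at 655 against 289.8 CPM (2.26, 2.08 to 2.45) and Ikzf4 at 32.3 against 12.7 CPM (2.54, 1.71 to 3.69), and these were the 2 called. Nrp1 was at 170.0 against 93.1 CPM (1.83, 1.56 to 2.13) and Il1rl1 at 31.5 against 21.9 CPM (1.43, 0.982 to 2.04). Foxp3, Nrp1 and Il1rl1 stayed under the 2-fold limit.

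In CD8 T cells the Il10+ class had more Ikzf2. The level was 333 CPM (291 to 379) in 56 Il10+ and 54.2 CPM (48.4 to 60.6) in 506 Il10- cells, a ratio of 6.14 (5.15 to 7.30). It was seen in 25 of 56 (44.6%, 31.3 to 58.5) against 74 of 506 cells (14.6%, 11.7 to 18.01). At a fixed depth of 1000 UMIs per cell the shares were 16.1% and 4.35%, and the median depths were 10561 and 10339 UMIs. The richest cell held 37 of 230 UMIs, and without it the Il10+ level was 283 CPM. Hashtags 9, 10, 11 and 12 were assigned to 5, 15, 7 and 7 of the 56 Il10+ cells. They were assigned to 55, 117, 114 and 104 of the 506 Il10- cells, and the remaining cells were hashtag doublets or negatives. In that order Ikzf2 was seen in 3, 7, 1 and 2 of the Il10+ cells and in 6, 19, 19 and 8 of the Il10- cells. For hashtag 11 the share was not higher in Il10+ cells (14.3% against 16.7%), and all 23 of its Il10+ UMIs lay in 1 cell. Over all alternatives, including only cells with 1 hashtag, the Ikzf2 ratio ranged from 4.88 to 8.14. Ikzf2 in Il10+ CD8 T cells was 5.31-fold (4.62 to 6.08) the level of NK cells, while it stayed below that of Cd4 T cells in either Il10 class.

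Foxp3 in the same cells was sparse. It had 9 UMIs in 3 of 56 Il10+ CD8 T cells (13.0 CPM, 5.95 to 24.7) and 25 UMIs in 7 of 506 Il10- cells (4.36 CPM, 2.82 to 6.43), a ratio of 2.99 (1.23 to 6.61). The 3 cells carried 5, 3 and 1 Foxp3 UMIs beside 36, 9 and 1 Ikzf2 UMIs and 70, 10 and 2 Ctla4 UMIs, and the cell with 5 Foxp3 UMIs had 1 UMI of Cd8a and Cd8b1. Without that cell the Il10+ level was 5.95 CPM. Without the cells of hashtag 9, which held 2 of the 3 cells, 1 Foxp3 UMI was left and the ratio became 0.332; without those of hashtag 10 it was 6.72.

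Ikzf4 and Il1rl1 gave small counts in CD8 T cells. Ikzf4 was at 23.1 CPM (13.2 to 37.6) in Il10+ against 5.40 CPM (3.67 to 7.67) in Il10- cells, from 16 and 31 UMIs (4.28, 2.19 to 8.07). The richest cell held 5 of the 16 UMIs, and the level without it was 16.3 CPM. Over the alternatives the ratio ranged from 1.51 with at least 2 UMIs for a positive class to 9.04 at 1000 UMIs per cell, each with 2 UMIs in the Il10+ cells. Nrp1 was at 76.7 against 27.4 CPM (2.80, 2.01 to 3.85), but 1 cell held 21 of the 53 UMIs, and the level without it was 47.2 CPM. At 1000 UMIs per cell Nrp1 was at 35.7 CPM (4.33 to 129) against 45.5 CPM (28.8 to 68.2). These values came from 2 and 23 UMIs and their intervals overlap, so they do not settle the order. Il1rl1 had 4 and 7 UMIs (4.74, 1.02 to 18.6), and 1 and 6 without hashtag 9 (1.38). Of the 2 members with at least 50 UMIs, Ikzf2 and Nrp1, both were called higher, beside 6.53% of 7614 genes, while 5.41% of genes were called lower.

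Other Treg genes were also higher in Il10+ CD8 T cells. Of 15 listed genes with enough UMIs, 9 were called higher and 1 lower, beside 6.53% and 5.41% of 7614 genes. Their median ratio was 2.65 against 1.02 over all genes tested. The 9 include Il10, which is higher by definition of the classes. The inhibitory receptors Ctla4 (797 against 135 CPM, 5.89-fold), Lag3 (83.9 against 17.1, 4.91-fold) and Tigit (57.9 against 15.2, 3.81-fold) were among them, as was Itgb8, an integrin chain that activates TGF-beta (59.3 against 7.15 CPM, 8.30-fold). Il2ra, the IL-2 receptor alpha chain, was at 576 against 713 CPM, and the ecto-enzyme Nt5e was the gene called lower, from 4 UMIs in Il10+ cells (5.79 against 14.5 CPM). The myeloid marker list summed to 338 CPM in this class against 118 in all CD8 T cells. Leaving out T cells with at least 5 UMIs of the neutrophil genes S100a8, S100a9 and Ngp removed 1 Il10+ and 2 Il10- cells, and the Ikzf2 ratio was then 6.42. Of 10 conventional T cell genes, 2 were called higher and 3 lower in Il10+ CD8 T cells. The rise of Treg genes was not particular to CD8 T cells. By Il10 in T cells with neither transcript, 14 of 21 were called higher and 0 lower (median ratio 2.33), beside 4.21% of genes higher. In Cd4 T cells 3 of 16 were higher and 0 lower, beside 4.72% in either direction.

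CD8 T cells with Ikzf2 (99) were set against those without it (463) after the values had been seen. The 99 include 8 of the 10 Foxp3+ CD8 T cells, which held 110 of the 541 Ikzf2 UMIs. The part of these Foxp3+ cells in the ratios below was not tested. Of 15 Treg genes with enough UMIs, 11 were called higher and 0 lower, beside 5.08% of 7614 genes higher and 1.47% lower. Tnfrsf4 (OX40) was at 447 against 38.5 CPM (11.6, 9.86 to 13.7), Ctla4 at 513 against 128 CPM (4.01, 3.59 to 4.47) and Il10 at 75.6 against 21.7 CPM (3.49, 2.63 to 4.61). Itgb8 was at 59.6 against 0.782 CPM (76.2, 28.6 to 287), in 18 and 2 cells, and Areg at 48.9 against 1.95 CPM (25.0, 12.8 to 54.6). Il2ra was at 631 against 716 CPM (0.881, 0.816 to 0.951). The neutrophil granule genes Ngp and Camp were also among the highest ratios, and Ngp had 1160 UMIs in 4 of the Ikzf2+ cells. Their part in these ratios was not tested.

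**Figure D2:**
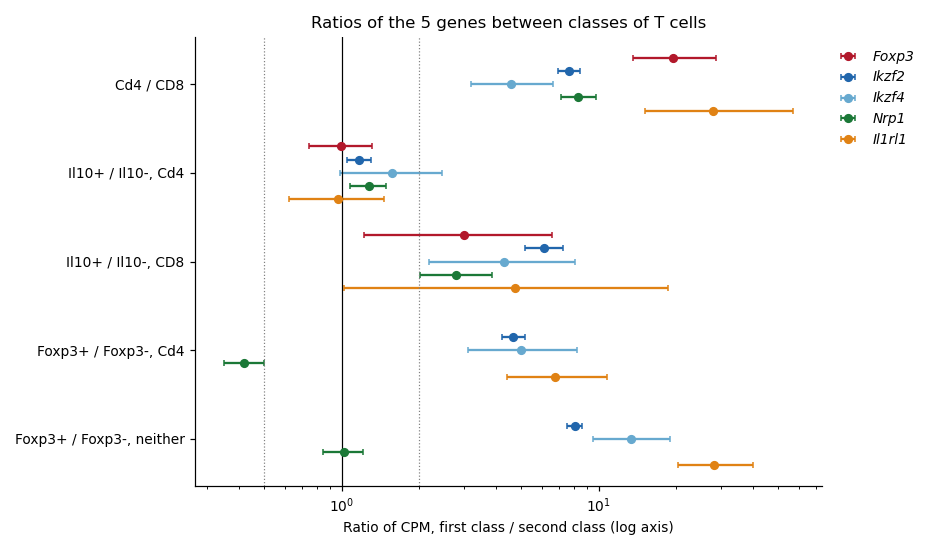
Ratio of CPM between classes of T cells for each member (log axis), with exact conditional 95% intervals, the solid line at 1 and dotted lines at the 2-fold limits. Foxp3 is not drawn where it defines the classes. Ikzf2, Ikzf4 and Il1rl1 lie above 4-fold in both Foxp3 comparisons, while Nrp1 is at 0.418 in Cd4 T cells and 1.02 in T cells with neither Cd4 nor CD8 transcripts.

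Foxp3+ Cd4 T cells (65, with a Foxp3 UMI) carried far more of the Ikaros factors and of Il1rl1 than the 195 Foxp3- Cd4 T cells. Ikzf2 was at 1273 CPM (1206 to 1343) against 273 CPM (249 to 298), a ratio of 4.66 (4.20 to 5.18). Ikzf4 was at 66.9 against 13.5 CPM (4.97, 3.09 to 8.26), and at 13.3-fold without the cells of hashtag 10, which left 7 UMIs in Foxp3- cells. Il1rl1 was at 103 against 15.1 CPM (6.79, 4.42 to 10.8), and 14 of the 27 Foxp3- UMIs came from 1 cell. Without the richest cell of each class the levels were 94.7 and 7.36 CPM. Without hashtag 11 the ratio was 14.7, from 98 and 9 UMIs. Each of the 3 was called higher, beside 5.07% of 6290 genes. Over the alternatives, including all cells of the T cell gate, the ratios ranged from 3.04 to 8.93 for Ikzf2, 3.19 to 18 for Ikzf4 (the highest from 6 and 1 UMIs at 1000 UMIs per cell) and 2.89 to 23.6 for Il1rl1.

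Nrp1 had the reverse order. It was at 145 CPM (123 to 170.0) in Foxp3+ and 347 CPM (320.2 to 375) in Foxp3- Cd4 T cells, a ratio of 0.418 (0.348 to 0.500) and a call of at least 2-fold lower, beside 4.44% of genes. Yet more of the Foxp3+ cells had a UMI of it, 33 of 65 (50.8%, 38.1 to 63.4) against 67 of 195 (34.4%, 27.7 to 41.5). The Foxp3+ cells were deeper, with a median of 14134 against 7586 UMIs, and at 1000 UMIs per cell the shares were 12.3% (5.47 to 22.8) and 18.5% (13.3 to 24.6), whose intervals overlap. Positive Foxp3- cells held a median of 5 Nrp1 UMIs and positive Foxp3+ cells 3. At least 5 Nrp1 UMIs were found in 38 of the 195 Foxp3- and 10 of the 65 Foxp3+ cells.

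In T cells with neither Cd4 nor CD8 transcripts Nrp1 was at 103 CPM (87.2 to 122) in 125 Foxp3+ and 101 CPM (94.9 to 108) in 1060 Foxp3- cells (1.02, 0.8505 to 1.22), while Ikzf2 was 8.09-fold (7.56 to 8.65), Ikzf4 13.4-fold (9.52 to 19.03) and Il1rl1 28.3-fold (20.4 to 39.8) higher in the Foxp3+ cells. In all T cells it was at 113 CPM (101 to 126) in 207 Foxp3+ and 105.06 CPM (100.3 to 109.95) in 1823 Foxp3- cells (1.08, 0.951 to 1.21). Over all T cells Ikzf2 was at 1295 against 145 CPM (8.93, 8.49 to 9.40), Ikzf4 at 70.4 against 6.85 CPM (10.3, 8.15 to 13.0) and Il1rl1 at 112 against 4.76 CPM (23.6, 18.5 to 30.4). The 10 Foxp3+ CD8 T cells had Ikzf2 at 725 CPM in 8 cells, Ikzf4 at 46.1 in 4, Il1rl1 at 26.4 in 3, and Nrp1 in 1 cell.

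Genes of the Treg program and of conventional T cells parted along the same split. Of 16 listed Treg genes with enough UMIs, 10 were called higher in Foxp3+ Cd4 T cells and 1 lower, beside 5.07% and 4.44% of all genes, with a median ratio of 2.27 against 1.05 over all genes. Ctla4 was at 1514.5 against 466 CPM (3.25, 2.99 to 3.54), Il2ra at 1541 against 573 (2.69, 2.48 to 2.91), Tnfrsf18 (GITR) at 493 against 186 (2.65, 2.30 to 3.05) and Ccr8, a chemokine receptor of activated Treg, at 64.1 against 15.7 (4.08, 2.59 to 6.59). Il10 was the gene called lower, at 48.1 against 128 CPM (0.376, 0.272 to 0.511), although it was seen in 20.0% and 22.6% of cells. Of 9 conventional T cell genes, 8 were called lower and 0 higher, beside the same 4.44% and 5.07%. The cytokine genes Il2 (61.3 against 2315 CPM, ratio 0.0265) and Ifng (89.5 against 1693 CPM, 0.0529) and the CD40 ligand gene Cd40lg (51.8 against 545 CPM, 0.0950) were lowest, and Il7r was at 99.0 against 94.2 CPM. Over all T cells 17 of 21 Treg genes were called higher, beside 8.12% of genes.

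**Figure D3:**
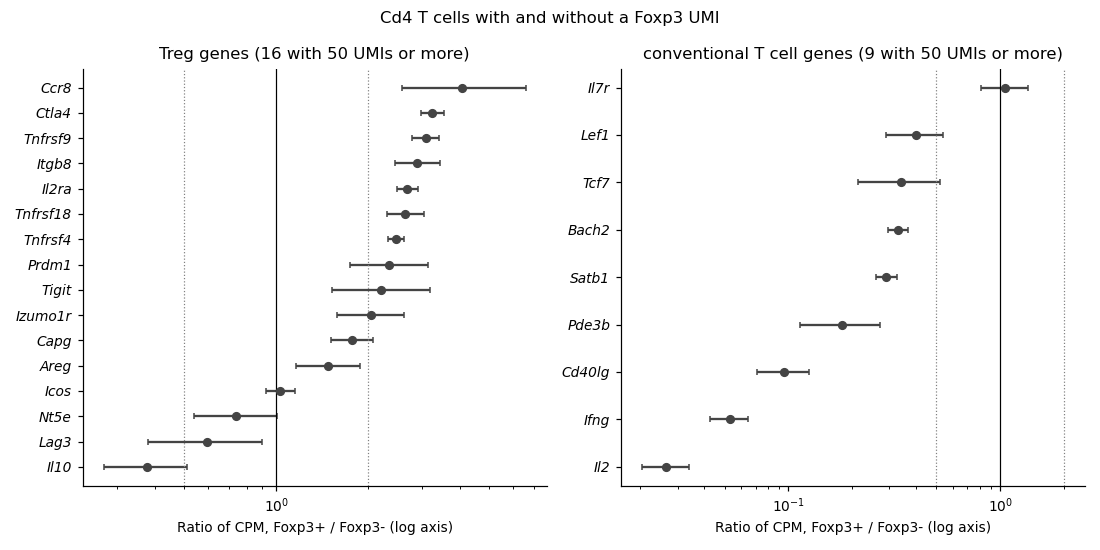
Ratio of CPM in Foxp3+ over Foxp3- Cd4 T cells (log axes, which differ between the panels) for the Treg genes (left) and conventional T cell genes (right) with at least 50 UMIs, with exact conditional 95% intervals. Ccr8 and Ctla4 lead the left panel at 4.08 and 3.25, Il10 is lowest there at 0.376, and Il2 is lowest on the right at 0.0265.

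Relatives and partners of the members were compared in the same cells, where 5.07% of genes were called higher and 4.44% lower. Ikzf1 (Ikaros) was at 368 against 618 CPM (0.595, 0.529 to 0.669) and Ikzf3 (Aiolos) at 482 against 314 CPM (1.53, 1.36 to 1.73), so 0 of 2 Ikaros relatives were called. Nrp2, the relative of Nrp1, was called higher at 43.4 against 8.97 CPM (4.83, 2.69 to 9.15), in 9 of 65 and 6 of 195 cells. Of 6 Foxp3 partners, Runx1 (391 against 948 CPM, 0.412) and Foxp1 (613 against 1261 CPM, 0.486) were called lower and 0 higher, and Stat5b was at 252 against 249 CPM. Of 7 genes listed with the ST2 axis, the IL-18 receptor gene Il18r1 was called higher (145 against 54.4 CPM, 2.67) and 4 were called lower. These 4 were the ST2 co-receptor Il1rap (27.3 against 61.1 CPM) and the Th2 cytokines Il4, Il5 and Il13, of which Foxp3+ cells held 0, 1 and 0 UMIs.

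The highest ratios apart from Foxp3 belonged to genes of few cells. Slc8a1 (149.8 against 2.80 CPM), Prkg1 (127 against 3.92) and Gcg (46.2 against 2.24) came from 7, 4 and 1 of the 65 Foxp3+ cells, and Pclaf, a replication gene, from 9. Lyz2, a myeloid gene, was at 74.5 against 4.48 CPM in 6 cells of each class, and the myeloid list summed to 257 against 128 CPM. Without T cells that held myeloid or B cell marker UMIs the Ikzf2 ratio was 4.05. The lowest ratios were those of Il5, Il13, Ccl1, Ralyl and Il17a, which were found in 4, 13, 14, 14 and 3 of the 195 Foxp3- cells and in at most 1 Foxp3+ cell.

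Single Foxp3+ T cells nearly always held Ikzf2. Of the 207, 197 (95.2%) had an Ikzf2 UMI, 100 (48.3%) Ikzf4, 75 (36.2%) Nrp1, 74 (35.7%) Il1rl1 and 49 (23.7%) Il10. At least 1 other member was present in all but 8 of them, 60 had 3 others and 15 had all 4. Of the 1823 Foxp3- T cells, 1216 (66.7%) had none of the 4 and 2 had all. Of the 100 Foxp3+ cells with Ikzf4, 50 had Il1rl1, and of the 75 with Nrp1, 21 did. In the other direction, of the 628 T cells with Ikzf2 431 had no Foxp3 UMI, so Ikzf2 alone did not pick out Foxp3+ cells, and the same held for 273 of the 348 with Nrp1. With Il1rl1, 74 of 117 had Foxp3, and with Ikzf4, 100 of 186. Of the 207 Foxp3+ cells, 54 held only 1 Foxp3 UMI. A Foxp3 transcript can thus be missed, and the Foxp3- cells can include cells that express it.

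**Figure D4:**
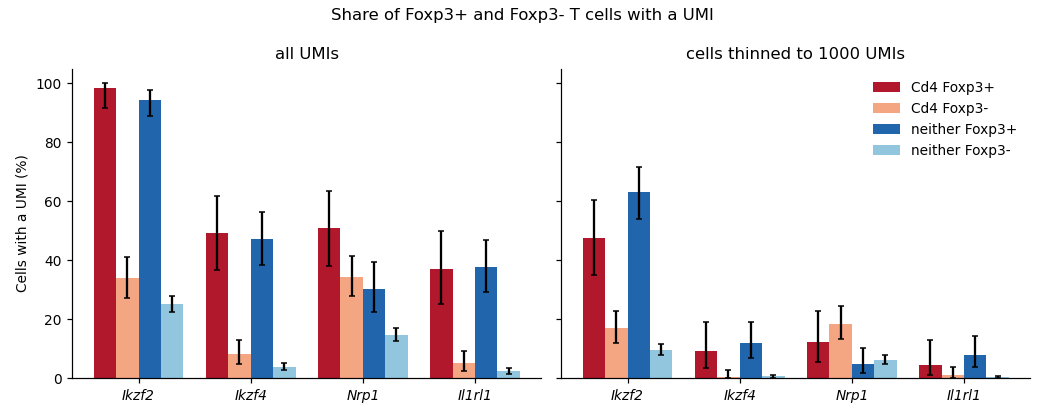
Share of cells with at least 1 UMI (%) of Ikzf2, Ikzf4, Nrp1 and Il1rl1 in Foxp3+ and Foxp3- T cells with Cd4 or with neither Cd4 nor CD8 transcripts, with all UMIs (left) and after thinning each cell to 1000 UMIs (right). Bars have exact 95% Clopper-Pearson intervals. For Nrp1 in Cd4 T cells the Foxp3+ share is 50.8% against 34.4% on the left and 12.3% against 18.5% on the right.

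Among Foxp3- T cells, the Il1rl1 level was higher in those with Th2 cytokines. Foxp3- T cells with at least 2 UMIs of Il4, Il5 and Il13 (63 cells) had Il1rl1 at 60.5 CPM (42.8 to 83.0) in 15 cells, and the other 1760 Foxp3- T cells at 2.70 CPM (1.98 to 3.60) in 28 cells, a ratio of 22.4 (14.2 to 35.2). 1 cell gave 14 of the 38 UMIs, and the level without it was 39.3 CPM. The other 1760 cells held 46 of the 84 Il1rl1 UMIs of Foxp3- T cells. Basophils had Il1rl1 at 215 CPM and Il13 at 1386 CPM, and basophil markers summed to 47.9 CPM in all T cells. The part of basophil transcripts in this ratio was not tested. Foxp3+ T cells were 1.86-fold (1.32 to 2.67) above the Th2 cytokine cells. Nrp1 was at 113 CPM in the Th2 cytokine cells, with a ratio of Foxp3+ T cells to them of 1.00 (0.771 to 1.31), and Ikzf2 at 232 CPM was below the 1295 CPM of Foxp3+ T cells.

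Within Foxp3+ T cells, those with Il1rl1 (74) and without it (133) were compared after the values had been seen, and the median depth was 9856.5 against 11546 UMIs. Cells with Il1rl1 had Foxp3 at 383 against 236 CPM (1.62, 1.40 to 1.87), Ikzf4 at 108 against 52.3 (2.07, 1.55 to 2.77) and Nrp1 at 83.7 against 127 (0.659, 0.501 to 0.858). Of 20 Treg genes 5 were called higher and 0 lower, beside 1.38% of 6308 genes higher and 1.97% lower. These were Itgae (CD103, 49.1 against 9.07 CPM, 5.41), Areg, a growth factor gene (279 against 91.3, 3.06), Klrg1 (83.7 against 32.0, 2.61), the ecto-enzyme gene Entpd1 (36.8 against 17.6, 2.09) and the repressor Prdm1 (152 against 75.3, 2.02). Il10 was at 52.5 against 69.4 CPM (0.756, 0.530 to 1.06) and Il2 at 66.98 against 219.9 CPM (0.305, 0.228 to 0.400). Tnfrsf25, a death receptor family gene outside the lists, was at 77.0 against 19.7 CPM (3.90, 2.58 to 5.98) in 38 of 74 and 26 of 133 cells.

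Nrp1+ and Nrp1- cells were compared in the same way within Cd4 T cells. Among the Foxp3+ cells (33 with and 32 without Nrp1), Tnfsf8, the CD30 ligand gene, was at 626 against 16.5 CPM (38.0, 18.3 to 95.1) in 24 and 3 cells, and Cd40lg at 81.7 against 7.06 CPM (11.6, 3.75 to 57.9) in 16 and 2 cells. Il2 was at 99.0 against 4.71 CPM (21.0, 5.59 to 178) in 10 and 1 cells. The Nrp1+ cells had a median of 17868 UMIs and the Nrp1- cells 12261, and Lyz2 was at 119 against 7.06 CPM from 3 cells each. Genes called higher were 2.86% of 3842 and genes called lower 2.58%. Of 15 Treg genes 0 were called higher and 3 lower (Tnfrsf18, Nt5e and Areg), with a median ratio of 0.677. Of 7 conventional T cell genes 2 were called higher (Il2 and Cd40lg) and 0 lower. Of the other members, Ikzf4 (47.2 against 96.5 CPM, 0.489, 0.295 to 0.802) and Il1rl1 (59.7 against 167 CPM, 0.357, 0.234 to 0.537) were called lower in the Nrp1+ cells, while Foxp3 was at 242 against 325 CPM (0.745, 0.588 to 0.945). Among the Foxp3- cells (67 and 128), Hs6st3 was at 358 CPM in 15 cells with Nrp1 and had no UMI in those without, and Dgki was at 310.3 against 7.35 CPM in 14 and 3 cells. Tnfsf8, Hs6st3 and Dgki were named after their values were seen. Ikzf2 was called higher in the Nrp1+ cells (414 against 183 CPM, 2.26, 1.88 to 2.72), beside 4.23% of 4943 genes higher and 2.37% lower. Of 15 Treg genes 4 were called higher (Lag3, Izumo1r, Itgb8 and Areg) and 0 lower. Of 9 conventional T cell genes Ifng was called higher (3121 against 779 CPM, 4.004, 3.70 to 4.34), and Satb1, Bach2, Pde3b, Tcf7 and Lef1 were called lower.

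The hashtags give the spread between 4 parts of the pool. HTODemux, a caller of hashtags, assigned 256, 531, 399 and 343 T cells to hashtags 9, 10, 11 and 12 and called 431 doublets and 70 negatives. Foxp3 in T cells was at 62.0 CPM (52.9 to 72.2) in hashtag 9, 31.6 (26.9 to 36.9) in 10, 21.4 (17.1 to 26.4) in 11 and 58.3 (50.2 to 67.2) in 12. Hashtags 9 and 12 thus stood above 10 and 11 in CPM, with intervals that did not meet. Foxp3+ cells were 16.8%, 8.85%, 5.76% and 12.2% of T cells. The intervals of these shares overlap for hashtags 10 (6.58 to 11.6) and 12 (8.97 to 16.2). Ikzf2 had the same order in CPM, with 482, 251, 204 and 390.0. It was seen in 35.5%, 32.2%, 23.3% and 29.7% of T cells, where hashtag 10 lay above 12. The CPM of Nrp1 was highest in hashtag 10, with 111, 151, 68.6 and 109.7. Il1rl1 stood at 37.2, 9.82, 16.2 and 30.4 CPM, and Ikzf4 at 22.2, 17.5, 7.70 and 16.4 CPM.

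Inside the Foxp3+ T cells (43, 47, 23 and 42) the hashtags were closer. Ikzf2 ranged from 1139 to 1576 CPM, Ikzf4 from 56.6 to 74.8, Nrp1 from 100.04 to 123, and for Ikzf4 and Nrp1 the 4 intervals overlapped. Il1rl1 was at 70.9 CPM (50.4 to 97.0) in hashtag 10 and between 129 and 148 in the others, with the interval of hashtag 10 below those of hashtags 9 and 12. In Foxp3- Cd4 T cells Nrp1 was at 423, 399.7, 205 and 573 CPM, and hashtag 11 had the lowest value. In CD8 T cells Ikzf2 was at 119.6, 94.4, 73.6 and 37.1 CPM.

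**Figure D5:**
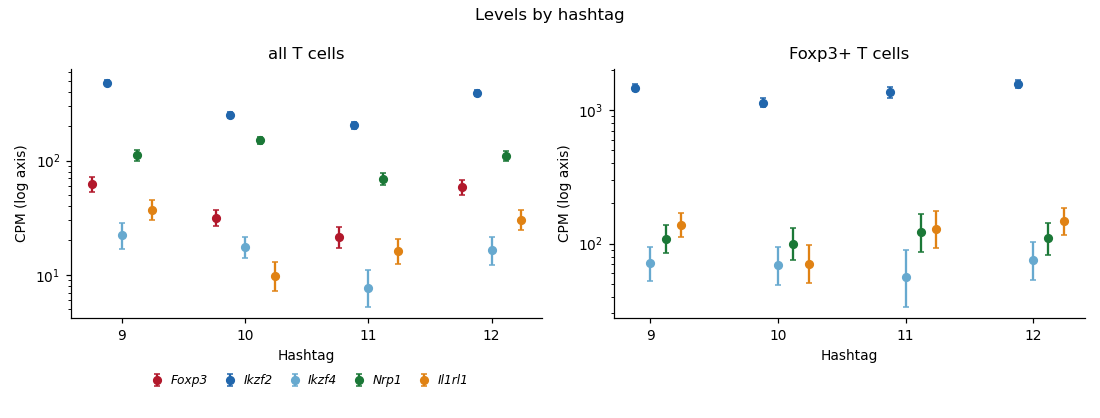
Level of each member (CPM, log axis) by hashtag in all T cells (left) and in Foxp3+ T cells (right, without Foxp3, which defines them), with exact Poisson 95% intervals. In all T cells Foxp3 and Ikzf2 are higher in hashtags 9 and 12 than in 10 and 11, and in Foxp3+ T cells Nrp1 stays between 100.04 and 123 CPM. Which condition each hashtag marks is not given in the sources used here.

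Across 11 classes (Cd4, CD8 and neither, each with and without Il10, cells with both, NK, B, basophil and myeloid), the genes most alike to each member were ranked among 10957 genes by Pearson's r of log2(CPM + 10). They share 1 library and differ in depth, so r is a description. Foxp3 was closest to Ece1 (0.980), Sdf4 (0.978) and Mapk11 (0.976), Ikzf2 to Tbc1d4 (0.944), Mlec (0.939) and Myl12b (0.919), and Ikzf4 to Phactr2 (0.967), Pde11a (0.9502) and Prelid2 (0.942). Nrp1 was closest to Hnrnpll (0.945), Atxn7l1 (0.935) and Rab11fip1 (0.934). Il1rl1 was closest to Slc24a3 (0.962), Creb3l2 (0.958) and the Th2 cytokine gene Il13 (0.952). Among the members, Foxp3 and Ikzf4 were most alike (0.889) and Foxp3 and Il1rl1 least (0.247). The 32 basophils had Il1rl1 at 215 CPM, Il13 at 1386 CPM and no Foxp3 UMI, and the part of this class in r was not tested. Within T cells, by contrast, Il1rl1 was 23.6-fold higher in Foxp3+ than in Foxp3- cells.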

How the data were processed

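A single multiplexed library of mouse spleen cells was analysed. The deposited matrix holds counts of UMIs per gene and cell barcode, which the authors made with Cell Ranger on GRCm38 (version 7.2.0 in the submitters' processing notes and 7.0.0 in the matrix header). The annotation behind these counts is not given in the sources used here. Of 16829 barcodes (502 to 98727 UMIs, median 2175 genes), 504 were left out by the limits on genes and mitochondrial UMIs and 16325 were kept. UMIs were summed per class and scaled to CPM in Python 3.11.15 with NumPy 2.4.6, pandas 2.3.3 and SciPy 1.17.1 (exact intervals). A pool without a map from hashtags to conditions is 1 sample, so no p-value was computed. The intervals cover counting error only. Depth also affects which cells show a UMI, and so the classes defined by a UMI and the shares of cells. Marked doublets (Scrublet in scanpy 1.11.5, expected rate 0.1, 7.99% of kept cells) stayed in the main values. The 431 T cells called doublets by their hashtags stayed in them too. HTODemux (Seurat 5.3.0, R 4.3.3) assigned hashtags in the T, NK and B cell gates. The T cell gate also held 174 cells that met the NK limit through Klre1, and these were kept as T cells. Thinning to 1000 UMIs left out 1 T cell. Only the 2-fold call was tested on simulated data, for Foxp3+ against Foxp3- Cd4 T cells. It recovered 184 of 200 genes changed 4-fold and called 25 of 6099 other genes (0.41%). The simulated counts were Poisson draws from 1 profile, without the spread between cells that real data have.

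The members and lists were chosen with earlier results of these data known. Named genes were the 5 members, the genes of the lists, the 5 highest and 5 lowest ratios in Foxp3+ against Foxp3- Cd4 T cells, and the 3 genes most like each member. Lyz2, Tnfrsf25, Tnfsf8, Hs6st3, Dgki, Ngp and Camp were named after their values were seen. The alternatives tried were stricter cell limits, doublet removal, other gates, thinning, means over cells, and leaving out the richest cell, each hashtag or cells with other markers.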

Additional observations from a re-analysis of the deposited data

How the results depend on the processing

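Of 574 values of 37 results under other settings, 449 stayed within their main interval or 1.5-fold of a main count, 122 moved and 3 reversed. For 5 more no ratio could be had, since the Il10+ class had no UMI: Foxp3 and Il1rl1 in CD8 T cells at 2 UMIs for a positive class or at 1000 UMIs per cell, and Il1rl1 in Cd4 T cells at 1000 UMIs. The reversed values were Nrp1 by Il10 in CD8 T cells at 1000 UMIs per cell (0.786, from 2 and 23 UMIs), Foxp3 by Il10 in CD8 T cells without hashtag 9 (0.332, from 1 and 25 UMIs, and 6.72 without hashtag 10) and Nrp1 by Foxp3 over all T cells (1.08). Ikzf2 by Il10 in CD8 T cells was 8.14 without cells above 20000 UMIs, 8.11 with 2 UMIs for a positive class, and 4.88 to 7.74 when each hashtag was left out. Nrp1 by Foxp3 in Cd4 T cells was 0.296 with 2 UMIs, 0.318 at 1000 UMIs per cell, 0.348 as a mean over cells, and 0.385 to 0.472 without each hashtag. Members at least 2-fold apart, whatever their UMIs, numbered 5 by Il10 in CD8 T cells, 3 without T cells with myeloid or B cell marker UMIs, 2 with 2 UMIs, 2 at 1000 UMIs per cell and 4 to 5 without each hashtag. By Il10 in Cd4 T cells they numbered 0, and 2 at 1000 UMIs per cell. Treg genes higher in Foxp3+ Cd4 T cells numbered 10, 6 with 2 UMIs, 17 over all T cells and 8 to 11 without each hashtag. Without each hashtag, counts for Cd4 against CD8 (5), T against NK and B cells (5), Foxp3 in Cd4 (4) and conventional genes (8) kept their size. Leaving out T cells with neutrophil transcripts, chosen after seeing the data, gave 6.42 for Ikzf2 by Il10 in CD8 T cells and 0.427 for Nrp1 by Foxp3 in Cd4 T cells. The causes were not tested. No paired analysis was possible because the pool is 1 sample with no replicate numbers. Small classes limit Foxp3, Ikzf4 and Il1rl1 in CD8 T cells, and hashtags that carry conditions cannot be told apart from replicate spread.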
